A study of Rattus norvegicus with 6 samples.

Results

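The fibroblast growth factor (FGF) family was described here in the heart primordium of rat embryos around the time at which it starts to beat. The family was taken by gene name and comprised the FGF genes, the FGF receptors, the Sprouty and Spred inhibitors, the ERK phosphatase Dusp6 and the ETS transcription factors Etv1, Etv4 and Etv5. This gave 40 genes with 53 probes, of 17824 named genes and 30367 probes on the array. The samples were heart primordia of Wistar rats (spelled Wister rat in the labels) at embryonic day 10, taken before or after the first contractions. Primordia of the pre-heartbeat group were flat at the center and came from embryos with 3 to 4 somites, whereas those of the post-heartbeat group were raised at the center and came from embryos with 4 to 5. The labels name no altered gene and no agent for either group. There were 3 biological replicates in each group with 1 array each, and how many primordia were in a sample was not given for the arrays in the sources used here. Total RNA was labeled with cyanine 3 and hybridized to 1-color Agilent arrays, so the RNA of all cells in the primordium was measured together. Fewer cells of a type and less RNA per cell cannot be told apart in such samples.

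FGFs are secreted proteins that bind receptor tyrosine kinases together with heparan sulfate, and the receptors activate the RAS-ERK cascade. ERK signaling raises transcription of the ETS factors Etv1, Etv4 and Etv5 and of its own inhibitors, the Sprouty and Spred proteins and the phosphatase Dusp6, and these genes are widely used as readouts of FGF activity. In the early embryo, Fgf8 is needed for cardiac mesoderm, and Fgf8 and Fgf10 are known as ligands of the second heart field, which adds cells to the forming heart tube.

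Signals are given as log2 of the processed intensity relative to the 75th percentile of the same array, so that 0 is the level of the 75th percentile and 1 unit is a doubling. Each gene was represented by its brightest probe, and levels of different genes were not ranked, as probes differ in brightness. A gene was tested if, in at least 1 of the groups, this probe was well above background on each of the 3 arrays, and 20 of the 40 genes passed. All 20 were well above background on all 6 arrays. By the slide numbers in the names of the scanner output, the only source of the slide used here, the 6 arrays lay on 2 slides: pre-heartbeat 1 and post-heartbeat 1 and 2 on slide 1, and pre-heartbeat 2 and 3 and post-heartbeat 3 on slide 2. With the group in the model, 16.1% of the 19299 tested probes of the array differed between the slides at a limma adjusted p under 0.05, whereas in the same model 1.09% were higher and 0.42% were lower post-heartbeat. Without the slide in the model, 0.124% were higher and 0.0207% lower. Values within each slide and with the slide as a block are therefore given beside the differences. The markers of cardiac muscle (Myl7, Tnnt2, Nkx2-5, Gata4 and others) were well above background on all 6 arrays in 13 of 13. Between arrays, the correlation of all probes was 0.975 to 0.996 and 0 spots were saturated.

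Most FGF ligands were not measurable in the heart primordium. Of the 22 FGF genes, 13 were well above background on 0 of 6 arrays, with signals between -8.58 and -6.21, and 5 were so on 1 to 3 arrays. Of the 18 secreted ligands, 12 were at background throughout: Fgf2, Fgf3, Fgf5, Fgf6, Fgf7, Fgf15, Fgf17, Fgf18, Fgf20, Fgf21, Fgf22 and Fgf23. This includes the hormone-like ligands Fgf15, Fgf21 and Fgf23. Klb and Kl, the Klotho co-receptors that these use, had no tested probe, and whether the array held a probe for them is not given here. The transcript of the Fgf15 probe now carries the symbol Fgf19 in RefSeq. Such values are limits of the probes and arrays, and they do not show that the transcripts were absent.

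**Figure D1:**
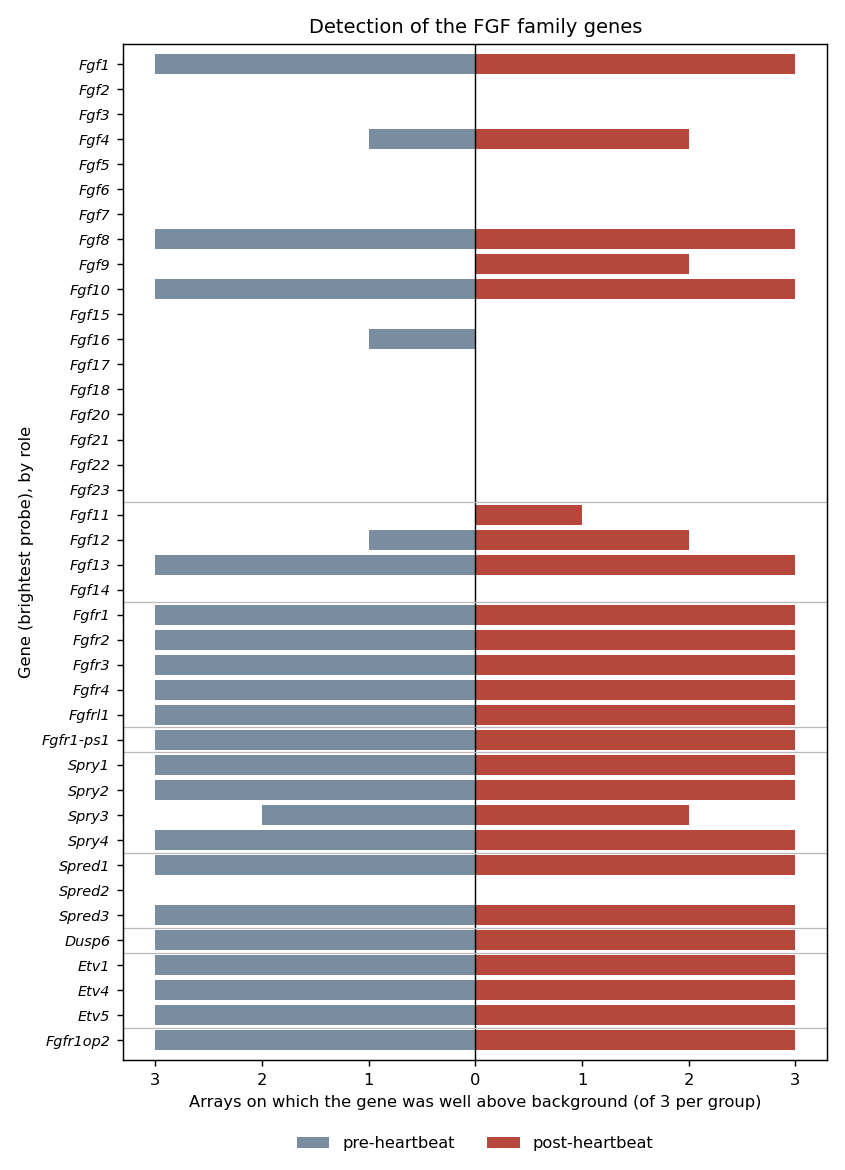
Number of arrays (of 3 in each group) on which the brightest probe of each of the 40 genes was well above background, with genes on the vertical axis ordered by role. The 20 tested genes were detected on all 6 arrays, and the FGF genes make up 18 of the 20 that were not tested.

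The other 3 untested ligands lay at the border of detection. Fgf9 was well above background on 0 of 3 pre-heartbeat arrays and on 2 of 3 post-heartbeat arrays. Its signals were -6.74, -7.19 and -7.24 on pre-heartbeat arrays 1 to 3 and -5.60, -6.07 and -6.78 on post-heartbeat arrays 1 to 3. The third post-heartbeat array lay just below the first pre-heartbeat array, so that the groups overlapped, and the gene did not pass the filter for a test. Fgf4 was well above background on 1 pre-heartbeat and 2 post-heartbeat arrays, with -6.26, -6.98 and -7.69 against -5.83, -5.73 and -6.96, and its groups overlapped as well. Fgf16 was so on 1 pre-heartbeat array and 0 post-heartbeat arrays. Fgf9 and Fgf16 are known as growth signals for heart muscle at later stages.

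Fgf1, Fgf8 and Fgf10 were the 3 secreted ligands detected on all 6 arrays. Fgf8 had signals of -2.0, -3.12 and -2.54 in the pre-heartbeat group and -1.39, -1.98 and -2.61 in the post-heartbeat group. The first post-heartbeat array was the highest and the second pre-heartbeat array the lowest, and the groups overlapped. The mean difference of Fgf8, post-heartbeat less pre-heartbeat, was 0.56 on the log2 scale (SE 0.383, n = 3 per group, limma adjusted p = 0.864), or 1.47 fold with a 95% interval of 0.786 to 2.76 fold. With the slide as a block, it was 0.27 (SE 0.221, limma adjusted p = 0.922). Within slide 1, Fgf8 was 0.32 higher post-heartbeat, and within slide 2 0.21 higher. The slides themselves differed by more than the groups, with slide 2 -0.88 relative to slide 1 (limma adjusted p = 0.0348).

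Fgf1, a ligand that can bind all FGF receptors, had signals of -1.20, -1.5 and -1.98 before and -0.88, -0.96 and -2.02 after the first beats. The third array of each group was the lowest in its group, and both of these arrays were on slide 2. The difference between the groups was 0.28 (SE 0.347, limma adjusted p = 0.864), and it came to 0.0034 with the slide as a block, since the arrays of slide 1 gave 0.28 and those of slide 2 gave -0.28. Fgf10, which signals mainly through Fgfr2, varied less between arrays, with signals of -4.96, -4.70 and -4.71 pre-heartbeat and -4.73, -5.04 and -5.03 post-heartbeat. Its difference was -0.14 (SE 0.158, limma adjusted p = 0.864), and the 95% interval reached from 0.698 to 1.17 fold.

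Of the intracellular FGF-homologous factors, which do not activate FGF receptors and bind sodium channels, Fgf13 was tested. Fgf14 was at background on all arrays, Fgf11 was detected on 1 post-heartbeat array, and Fgf12 on 1 pre-heartbeat and 2 post-heartbeat arrays. Fgf13 had the widest spread of the 20 tested genes, with -2.10, -4.30 and -3.48 pre-heartbeat and -2.65, -3.33 and -3.86 post-heartbeat. The mean difference was 0.013 with a 95% interval of -1.33 to 1.35, so that a change of 2.55 fold upward lay within the error. A second Fgf13 probe gave -5.73, -5.52 and -5.47 pre-heartbeat and -5.87, -7.83 and -6.35 post-heartbeat, passed background on all pre-heartbeat arrays and 2 of the post-heartbeat ones, and had a difference of -1.11 (SE 0.465, limma adjusted p = 0.711). This probe passed the filter through the pre-heartbeat group alone, where it was higher, so that its groups without overlap cannot serve as support. Groups did not overlap in 11.6% of all tested probes. With the slide as a block, the difference was -0.43 in the brighter probe and -0.99 in this one. The 95% intervals of the 2 probes overlapped.

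All receptors of the family were detected on every array, and no difference between the groups passed the test in any of them. Fgfr1, the main receptor of early mesoderm, had signals of -0.77, -1.59 and -0.81 pre-heartbeat and -0.61, -0.88 and -1.09 post-heartbeat, and the difference was 0.20 (95% interval -0.41 to 0.80, limma adjusted p = 0.864). Fgfr2, whose isoforms divide between epithelium and mesenchyme, gave 2.30, 2.01 and 2.32 pre-heartbeat and 2.02, 2.16 and 2.26 post-heartbeat, a difference of -0.064. For this probe, the 95% interval of 0.745 to 1.23 fold left a change of 1.5 fold in either direction outside it. The other 3 tested Fgfr2 probes gave differences of 0.12, 0.043 and -0.5. The last of them had an interval of 0.393 to 1.28 fold, which does not leave out a fall of 1.5 fold. It differed between the slides by 0.92 (limma adjusted p = 0.00909).

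Fgfr3 had signals of -0.34, -1.25 and -0.52 pre-heartbeat and -0.38, -0.56 and -0.88 post-heartbeat. Fgfr4 gave -5.28, -6.10 and -5.43 pre-heartbeat and -5.20, -5.62 and -5.47 post-heartbeat. In both receptors, the second pre-heartbeat array was the lowest of the 6 and the other 5 arrays lay together without order by group. The differences were 0.10 (95% interval -0.54 to 0.73) in Fgfr3 and 0.17 (-0.40 to 0.75) in Fgfr4, with limma adjusted p of 0.921 and 0.865, and within slide 1 both were lower post-heartbeat, at -0.13 and -0.13, and within slide 2 higher, at 0.0072 in Fgfr3 and 0.30 in Fgfr4. Fgfrl1, a receptor-like protein without a kinase domain, gave 2.71, 1.84 and 2.49 pre-heartbeat and 2.91, 2.65 and 2.20 post-heartbeat, a difference of 0.24 (limma adjusted p = 0.864) that came to 0.056 with the slide as a block. Among the genes matched by name, 2 are not receptors, namely the pseudogene Fgfr1-ps1, whose probe can share RNA with Fgfr1 and which differed by 0.10, and Fgfr1op2, named for a fusion partner of Fgfr1, which differed by -0.20 (limma adjusted p = 0.920 and 0.864).

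**Figure D2:**
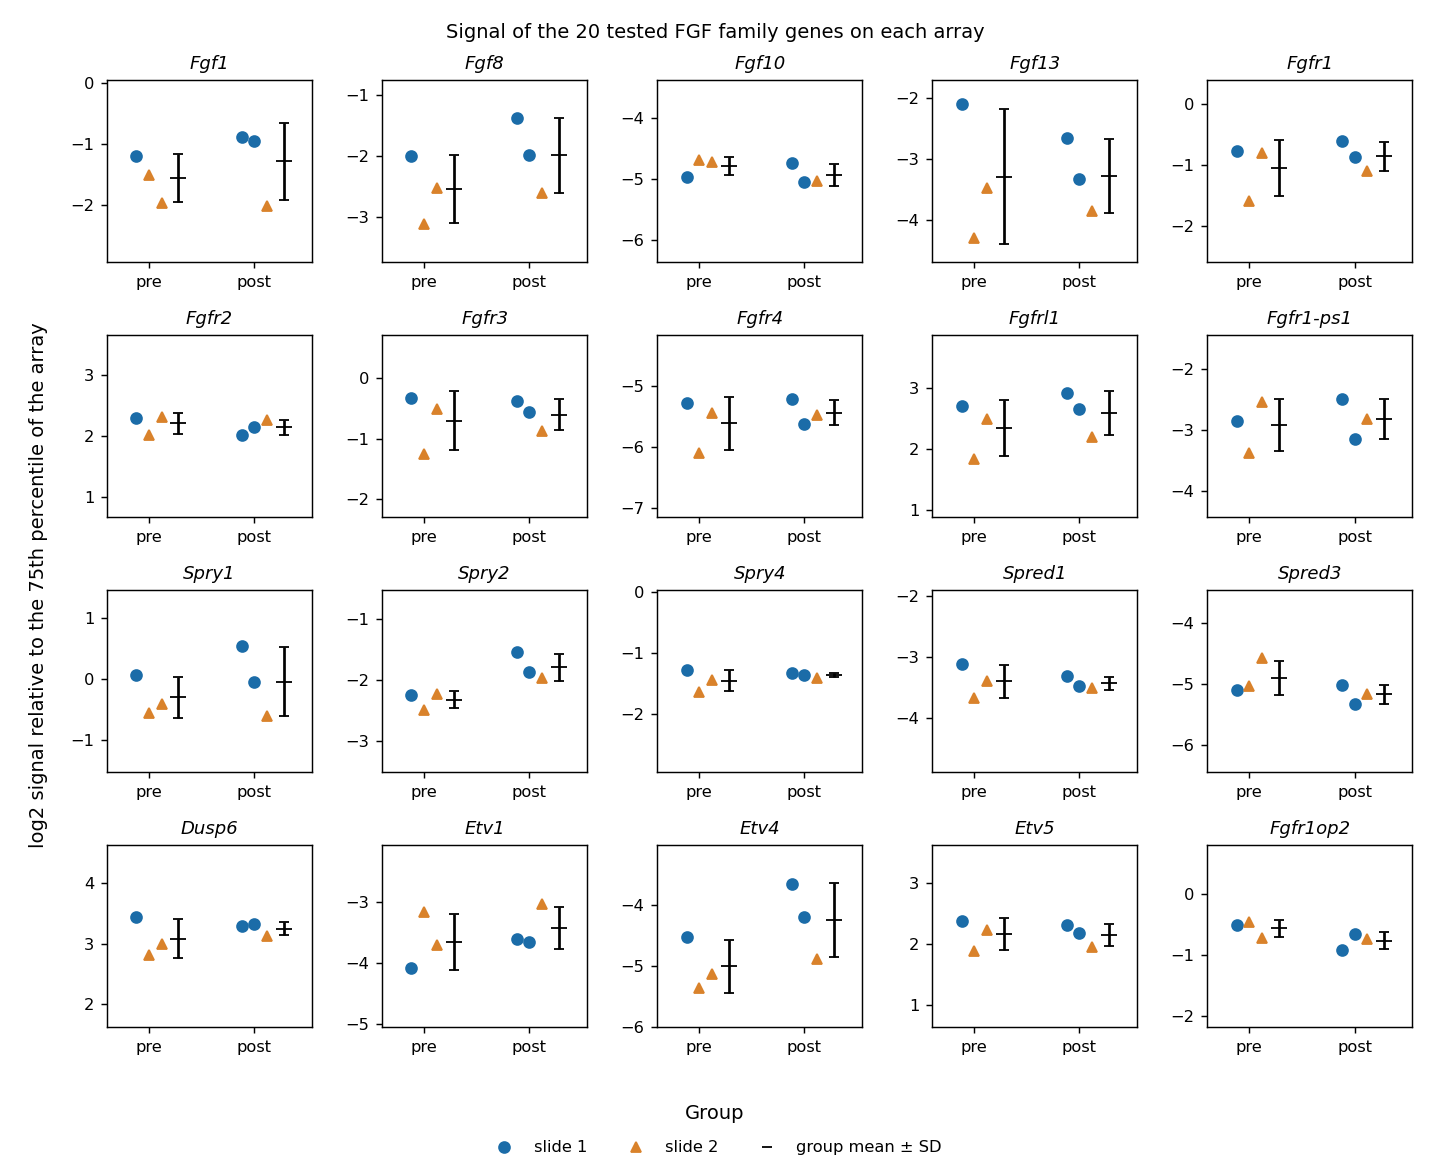
Signal of each of the 20 tested genes on each array (vertical axis, log2 of the signal over the array's 75th percentile), with 1 panel per gene, the 2 groups on the horizontal axis, points marked by slide and bars for the group mean ± SD (n = 3). The groups overlapped in every gene but Spry2.

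The promoters of Spry2 and Dusp6 are shown because these feedback inhibitors are direct outputs of the pathway and Spry2 was the gene whose groups did not overlap. The stretch is the 250 bases before the start of transcription, from RefSeq with build GRCr8, 5′ to 3′ on the strand of the gene. Spry2 lies on chr15:89111927-89112176, minus strand, and Dusp6 on chr7:35979354-35979603, plus strand. Capitals mark CGGAA and its reverse complement TTCCG. ETS factors such as Etv4 and Etv5 bind the core GGAA within CGGAA, and GGAA after other letters is not marked. For Spry2, RefSeq lists 2 promoters and the first was taken.
Spry2: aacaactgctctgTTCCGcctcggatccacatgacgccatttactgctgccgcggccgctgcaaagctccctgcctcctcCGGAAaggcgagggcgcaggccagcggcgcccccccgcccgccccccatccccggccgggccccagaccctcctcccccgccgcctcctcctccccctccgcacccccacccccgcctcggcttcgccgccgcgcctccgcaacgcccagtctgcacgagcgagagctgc
Dusp6: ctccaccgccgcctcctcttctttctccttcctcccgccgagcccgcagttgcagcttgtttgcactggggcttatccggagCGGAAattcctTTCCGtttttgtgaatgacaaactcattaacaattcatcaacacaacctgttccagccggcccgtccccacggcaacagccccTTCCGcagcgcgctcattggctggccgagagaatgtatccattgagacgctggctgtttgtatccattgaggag

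The letters were found 2 times before Spry2 and 3 times before Dusp6, and no other motif was searched. Over all 33469 promoters of the table, 26.1% held them at least once on either strand. Of the 36 promoters of family genes, 10 (27.8%) held the letters. Counted by gene, 33 of the 40 had a promoter in the table and 10 of these (30.3%) held them. The same was so in 6 of the 17 tested genes with a promoter (35.3%). A gene counts with a match in any of its promoters, so shares of genes are not like the 26.1%. The GC content was 74.8% before Spry2 and 55.6% before Dusp6, against a median of 51.2% over all promoters. A match describes the sequence and is not a measured binding site.

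Of the Sprouty genes, which encode inhibitors of receptor tyrosine kinase signaling, Spry2 was higher on every post-heartbeat array than on any pre-heartbeat array. Its signals were -2.25, -2.49 and -2.23 pre-heartbeat and -1.55, -1.87 and -1.97 post-heartbeat (probe at chr15:90009823-90009882, minus strand, rn4). The group means were -2.33 ± 0.144 and -1.80 ± 0.219 (SD, n = 3 each), a difference of 0.53 (SE 0.167, 95% interval 0.13 to 0.92), or 1.44 fold. The limma adjusted p was 0.448, and the exact permutation test over the 20 assignments of the arrays gave a two-sided p of 0.1, the smallest that 3 against 3 arrays allow. The difference was 0.54 within slide 1, 0.39 within slide 2 and 0.47 with the slide as a block (SE 0.157, limma adjusted p = 0.313). The slides did not separate this gene at the threshold, with -0.18 between them (limma adjusted p = 0.441). As the groups did not overlap, the direction within each slide was fixed by that and is no added support. Spry2 did not pass the threshold over all tested probes.

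The other Sprouty genes did not separate the groups. Spry1 had signals of 0.070, -0.57 and -0.42 pre-heartbeat and 0.54, -0.059 and -0.61 post-heartbeat, with a difference of 0.26 (SE 0.314, limma adjusted p = 0.864) that was 0.17 within slide 1 and -0.12 within slide 2. Spry4 gave -1.28, -1.63 and -1.43 pre-heartbeat and -1.33, -1.35 and -1.40 post-heartbeat, a difference of 0.088 with a 95% interval of 0.839 to 1.35 fold. A second Spry4 probe gave -1.64, -2.91 and -2.80 pre-heartbeat and -1.18, -1.20 and -2.88 post-heartbeat, a difference of 0.70 (SE 0.539, limma adjusted p = 0.864). This probe followed the slide, with slide 2 -1.45 relative to slide 1 (limma adjusted p = 0.00145), and with the slide as a block its group difference was 0.21. Spry3 was well above background on 2 arrays of each group, with signals between -6.07 and -5.40, and was not tested.

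The Spred proteins, which block activation of RAF, had differences that did not pass the test. Spred1 had signals of -3.13, -3.67 and -3.40 pre-heartbeat and -3.31, -3.48 and -3.52 post-heartbeat, a difference of -0.037 (limma adjusted p = 0.956). Spred3 had -5.10, -5.04 and -4.58 pre-heartbeat and -5.03, -5.33 and -5.17 post-heartbeat, a difference of -0.27 (SE 0.186, limma adjusted p = 0.864), and it was lower post-heartbeat within both slides. Spred2 was at background on all arrays. Dusp6, which dephosphorylates ERK, gave 3.43, 2.82 and 3.0 pre-heartbeat and 3.28, 3.32 and 3.12 post-heartbeat (probe at chr7:36897369-36897428, plus strand, rn4). The highest array was the first pre-heartbeat one, so the groups overlapped, and the difference was 0.16 (SE 0.190, limma adjusted p = 0.864), or 1.12 fold with a 95% interval of 0.819 to 1.53 fold. Within slide 1, Dusp6 was lower post-heartbeat at -0.13, and within slide 2 it was higher at 0.21.

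Among the ETS factors, Etv4 had the largest difference of the 20 genes. Its signals were -4.52, -5.36 and -5.12 pre-heartbeat and -3.65, -4.19 and -4.87 post-heartbeat (probe at chr10:90810133-90810380, minus strand, rn4). Post-heartbeat arrays 1 and 2 lay above all pre-heartbeat arrays, and the third lay below the first pre-heartbeat array. The difference was 0.76 (SE 0.350, 95% interval -0.067 to 1.59), or 1.69 fold (limma adjusted p = 0.786). It was 0.60 within slide 1, 0.37 within slide 2 and 0.48 with the slide as a block (SE 0.184, limma adjusted p = 0.417), as the level on slide 2 was -0.84 relative to slide 1 (limma adjusted p = 0.0224).

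Etv1 gave -4.07, -3.16 and -3.71 pre-heartbeat and -3.59, -3.64 and -3.03 post-heartbeat. It was the only one of the 20 genes that was higher on slide 2 at the threshold, by 0.61 (limma adjusted p = 0.0488), and the difference between the groups was 0.22, and 0.43 after the slide was blocked (SE 0.173, limma adjusted p = 0.459). Within the slides, it was 0.45 and 0.40. Etv5 gave 2.38, 1.88 and 2.23 pre-heartbeat and 2.30, 2.17 and 1.96 post-heartbeat, with a difference of -0.020 and a 95% interval of 0.730 to 1.33 fold. Its second probe differed by 0.031. No ETS factor passed the test. Within both slides, Etv1 and Etv4 were higher post-heartbeat, while the brighter Etv5 probe was lower and its second probe was higher.

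**Figure D3:**
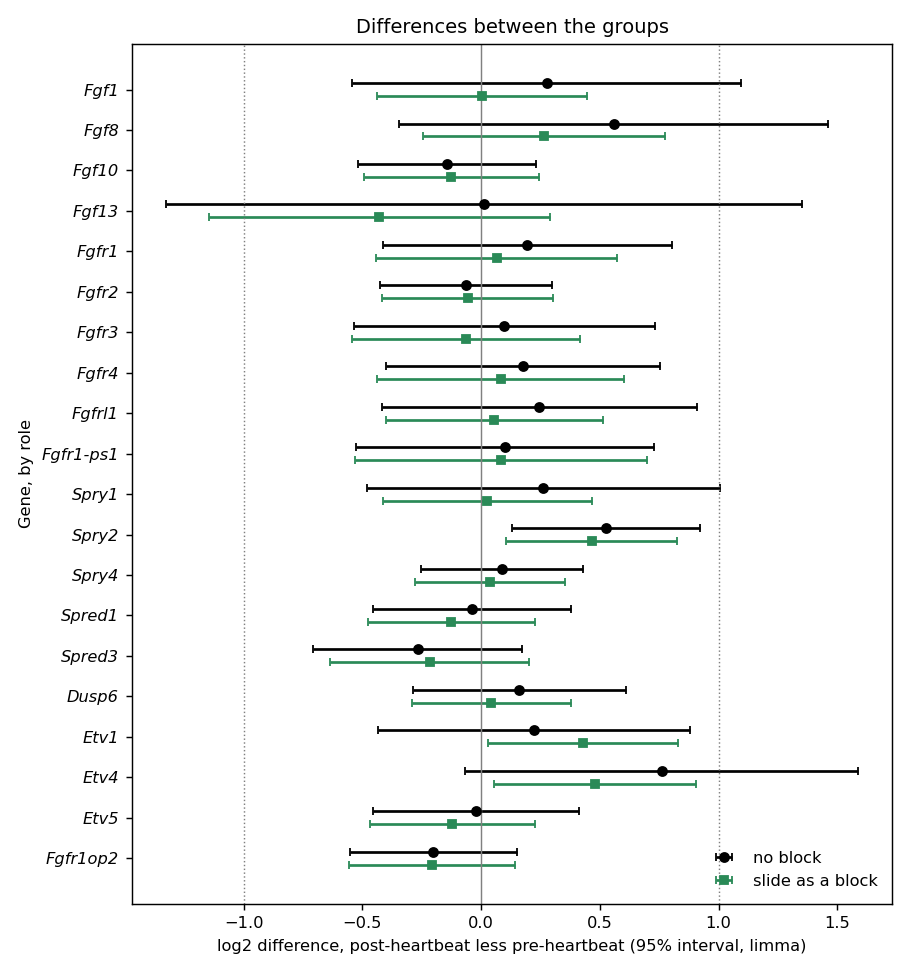
Log2 difference of each of the 20 tested genes, post-heartbeat less pre-heartbeat, on the horizontal axis, with the 95% interval of limma as a bar in black and the value and interval with the slide as a block in green (dotted lines, 2 fold either way). Without the block, the interval of Spry2, 0.13 to 0.92, is the only one that leaves out 0, and with it those of Etv1 and Etv4 leave out 0 too.

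Over the family, limma called 0 of the 20 tested genes higher and 0 lower at an adjusted p under 0.05, where 0.124% and 0.0207% of all tested probes were called. The rule of the study's methods selects probes by the Tukey HSD test without adjustment (p under 0.05) and by size (at least 1.5 fold). It also held 0 of the 20, against 1.9% of all tested probes higher and 1.16% lower. At an unadjusted p under 0.05, limma gave 1 gene, Spry2, which was higher (5%, against 7% of all tested probes in either direction, 3.9% higher and 3.1% lower), and the methods' test gave 1 as well (against 6.87%). Groups that did not overlap were found in 1 of 20 genes (5%), again Spry2, compared with 11.6% of all tested probes, 5.38% higher and 6.17% lower. For 15 of the 20 (75%), the 95% interval lay within a change of 2 fold either way, against 79.4% of all tested probes, and the exceptions were Fgf1, Fgf8, Fgf13, Spry1 and Etv4.

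With the slide as a block, limma again called 0 of the 20 genes at an adjusted p under 0.05, where 1.09% of all tested probes were higher and 0.42% lower. At an unadjusted p under 0.05, 3 genes (15%) were past the threshold, namely Spry2, Etv1 and Etv4, all higher post-heartbeat, against 9.63% of all tested probes, 5.4% higher and 4.23% lower. Higher post-heartbeat within both slides were 7 of 20 genes (35%, against 24.7% of all tested probes), lower within both 3, and 10 had opposite signs. For the lower genes and those of opposite sign, the share of all tested probes was not computed, so these counts have no background. Between the slides, 6 of the 20 genes (30%) differed at a limma adjusted p under 0.05, compared with 16.1% of all tested probes. Fgf1, Fgf8, Fgf13, Spry1 and Etv4 were higher on slide 1, as were 8.68% of all tested probes, and Etv1 was higher on slide 2, as were 7.43%. The median difference over the 20 genes was 0.13 without the block and 0.032 with it, beside -0.030 and -0.020 over all tested genes.

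**Figure D4:**
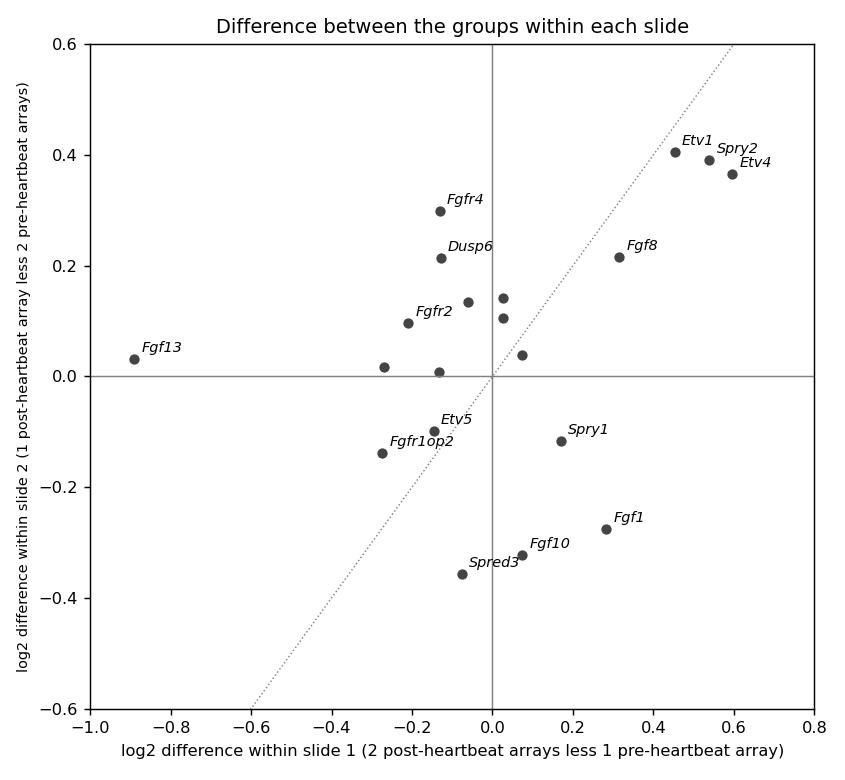
Log2 difference between the groups within slide 1 (horizontal axis) and within slide 2 (vertical axis) for the 20 tested genes, each from 3 arrays. Spry2, Etv1 and Etv4 lie in the upper right with the difference positive on both slides, and 10 genes lie in the quadrants of opposite sign.

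An array of each group stood at an end of the range in many of the genes. The second pre-heartbeat array was the lowest of the 6 in 14 of the 20 genes (70%), while it was the lowest in 20.2% of all tested probes and 20.5% of all tested genes, and the highest in 38% of these genes. It also had the lowest 75th percentile, 1143 intensity units, where the other arrays had 1259 to 1694. Among the 14 were all 5 receptors, Fgf8, Fgf13, Spry2, Spry4, Spred1, Dusp6, Etv4, Etv5 and the pseudogene. The first post-heartbeat array was the highest in 9 of the 20 genes, against 22.9% of all tested genes. Without the second pre-heartbeat array, the difference in Spry2 was 0.44, in Etv4 0.58 and in Fgf8 0.27, and without the first post-heartbeat array it was 0.40, 0.47 and 0.25. The part of the quality of these arrays in the results was not tested.

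Genes of the pathway outside the family were read from lists of co-receptors and heparan sulfate enzymes, of the RAS-ERK cascade, and of ERK feedback and targets. Limma called 0 genes of these lists at an adjusted p under 0.05, and at an unadjusted p under 0.05 it gave 1 of 22, 0 of 25 and 4 of 23 tested genes, against 7% of all tested probes. These were Flrt3, which was lower, and in the last list Dusp2, Dusp5 and Ier3, which were higher, and Ets1, which was lower. Over all tested genes, 45.1% had a higher post-heartbeat mean and the median was -0.030. Of the co-receptors and heparan sulfate genes, 22 of 28 were tested, 9 of them with a higher and 13 with a lower post-heartbeat mean, and the median was -0.025. Flrt3, a membrane protein that binds FGF receptors, had the lowest value at -0.51 (limma adjusted p = 0.607), with signals of 0.94, 0.84 and 0.60 pre-heartbeat and -0.037, 0.35 and 0.53 post-heartbeat. Fgfbp3, which releases FGFs from heparan sulfate, had the highest at 0.66 (limma adjusted p = 0.799). Of the RAS-ERK cascade, 25 of 26 genes were tested, 14 with a higher mean and 11 with a lower, and the median was 0.050. The values reached from -0.43 in Nf1, which inactivates RAS, to 0.53 in the kinase Akt1 (limma adjusted p = 0.840 and 0.864).

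Of these 3 lists, that of ERK feedback and target genes held members in the methods' selection, with 2 of 23 tested genes higher and 0 lower, against 1.9% and 1.16% of all tested probes. Dusp2, a phosphatase of nuclear ERK, had signals of -3.32, -4.18 and -3.81 pre-heartbeat and -2.28, -2.55 and -3.26 post-heartbeat, without overlap, and a difference of 1.07 (SE 0.315), or 2.10 fold. Its limma adjusted p was 0.378, and after the slide was blocked the difference was 0.82 (limma adjusted p = 0.0607). Ier3, an early response gene and ERK substrate, had -2.12, -2.46 and -2.49 against -1.62, -1.72 and -1.92, or 1.52 fold (limma adjusted p = 0.332). The lowest value of the list was that of Ets1, an ETS factor activated by ERK, at -0.75 (limma adjusted p = 0.683). Of this list, 17 of 23 genes had a higher mean, against 45.1% of all tested genes. The median of the list was 0.29 and 0.17 with the slide as a block, and without the second pre-heartbeat array it was 0.035. Of the tested family genes that answer to the same kinase, Spry2 had groups without overlap. Dusp6, Spry1, Spry4, Spred1, Spred3, Etv1, Etv4 and Etv5 had overlapping groups, as given above. Groups without overlap were found in 11.6% of all tested probes.

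Markers of the cell types that the dissection could hold differed between the groups in several lists and are given for whole lists, as sums over their tested genes of the linear signal relative to the 75th percentile. Cardiac muscle markers summed to 398 to 670 pre-heartbeat and 742 to 881 post-heartbeat, and 13 of 13 had a higher mean. Myl2 (3.46) and Nppa (1.84) were past limma's threshold, with Myl4, Tnnc1, Tnni1, Myh6 and Myh7 also in the methods' selection. Actc1, Tnnt2 and Myl7 carried most of that sum. The groups overlapped in Actc1 (0.41) and Tnnt2 (0.28) and did not in Myl7 (0.61). Neural ectoderm markers summed to 6.76 to 7.61 pre-heartbeat and 2.57 to 3.09 post-heartbeat. Otx2 carried most of that sum. Of these markers, 4 of 13 were tested and all 4 had a lower mean, with Otx2 at -1.56 and Hesx1 at -1.56. In Sox2 (-0.21) and Pax2 (-0.23) the groups overlapped, and Sox1, Pax6 and others had no tested probe. Endothelial markers (8 of 8 tested) summed to 16 to 17.2 pre-heartbeat and 11.3 to 13.0 post-heartbeat, with values from -0.55 in Kdr to 0.5 in Tie1. Kdr, the brightest of these probes, carried most of that sum, and the median difference of the list was -0.14. Yolk sac endoderm markers (8 of 8) summed to 50.8 to 53.9 pre-heartbeat and 32.2 to 43.0 post-heartbeat, from -0.61 in Apoa4 to 0.24 in Afp. Ttr (-0.58) carried most of that sum, and in each of the other genes of the list the groups overlapped. Foregut markers (6 of 9) summed to 4.64 to 5.32 pre-heartbeat and 4.28 to 4.61 post-heartbeat, from -0.42 in Epcam to 0.56 in Nkx2-1. Epcam was the brightest of these probes and carried a large part of that sum. Paraxial mesoderm markers (4 of 9) summed to 21.9 to 24.7 pre-heartbeat and 25.2 to 26.6 post-heartbeat, from -1.11 in Foxc1 to 0.58 in Tbx6. Tcf15 (0.19) and Pax3 (0.12) carried most of that sum. Of the erythroid markers, 5 of 6 were tested, with sums of 0.718 to 1.52 pre-heartbeat and 1.83 to 2.07 post-heartbeat, and Hbb (1.22) and Epor (1.26) were in the methods' selection. Hbb carried most of that sum. The mean was higher post-heartbeat in 3 of the 5 and lower in 2, Alas2 (-0.61) and Klf1 (-0.25). The sums overlapped between the groups for the second heart field (8 of 8 tested, with the highest value 0.66 in Tbx1), the surface ectoderm (5 of 8, -1.86 in Dlx5 to 0.21 in Dlx3) and the primitive streak (3 of 8, -0.32 in T to 0.00023 in Wnt3a). The part of these cell types in the values of the FGF family was not tested.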

How the data were processed

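Gene expression in heart primordia of rat embryos was measured on 6 arrays. The authors extracted total RNA and hybridized labeled cRNA to 1-color Agilent arrays, which per the submitters' processing notes were quantified with Agilent Feature Extraction 10.7.3.1. The deposited processed signal is an intensity per spot with the background subtracted and no normalization between arrays. Ratios on a linear scale, with column medians of 0.935 to 1.10, were deposited as well. As log2, differences between arrays in both kinds of values were equal within 0.01 in 100% of 30363 probes once 1 constant was taken off for each pair, so that scale and direction of the ratios were known. The baseline by which they were divided is not known.

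Here, control spots and outlier spots were left out, each array's 75th percentile was subtracted on the log2 scale and spots of a probe were averaged. A probe was well above background if at least 0.5 of its spots were. Groups were compared with limma 3.58.1 in R 4.3.3 over 19299 probes, with Benjamini-Hochberg adjustment, and by an exact permutation test. The procedure was tested on simulated data. Symbols are those of the array, and 35 of the 40 were matched to RefSeq by transcript. The array's own annotation gave the probe positions (rn4), and exon or UTR annotation was not used here.

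The members, lists and tests were chosen with earlier results of these data known. Every family gene was accounted for, and every tested gene was named. Of the other lists, genes past the limma threshold or in the methods' selection were named, or else the largest rise and fall, apart from 1 value that is not reported here. The Fgf13, Fgfr2, Etv5 and Spry4 second probes, Spry2, Etv1, Etv4 and the second pre-heartbeat array were singled out after their values were seen. The alternatives were the slide or the replicate number as a block, normexp with an offset of 50, quantile normalization, the percentile over probes above background on all 6 arrays, the authors' ratios, a filter on all 6 arrays or none, the mean of a gene's probes, the methods' test with Benjamini-Hochberg adjustment, a threshold of 2 fold, limma's p in the selection, and leaving out each array.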

Additional observations from a re-analysis of the deposited data

How the results depend on the processing

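The 3 arrays per group limited the precision, and a gene not well above background had only a bound. The count of genes called by limma stayed at 0 in both directions under every alternative run, with limma adjusted p of at least 0.227. The methods' selection changed in 1 setting: without post-heartbeat replicate 3 it held 1 gene, Spry2 (1.53 fold), while the count of higher genes was 0 to 1 and of lower genes 0 when each array was left out. Spry2 stayed higher under all alternatives, at 0.40 to 0.61, as did Etv4 at 0.29 to 1.08, Etv1 at 0.011 to 0.47 and Fgf8 at 0.25 to 0.87. Differences near 0 changed sign. With the slide as a block, Fgf13 was -0.43 and Fgfr3 -0.062, with normexp Fgf13 was -0.093 and Fgfr4 -0.025, and with quantile normalization Fgf13 was -0.017 and Etv5 0.0027. Fgf13 was also -0.0033 with the percentile over probes above background on all 6 arrays and -0.0052 with the authors' ratios, and the mean of a gene's probes gave -0.55 in Fgf13 and 0.0056 in Etv5. When each array was left out in turn, the range was -0.16 to 0.090 in Etv5, -0.49 to 0.61 in Fgf13, -0.071 to 0.34 in Fgfr1, -0.13 to 0.29 in Fgfr1-ps1, -0.16 to 0.00043 in Fgfr2, -0.18 to 0.28 in Fgfr3, -0.073 to 0.34 in Fgfr4, -0.0089 to 0.44 in Fgfrl1, -0.17 to 0.10 in Spred1, -0.029 to 0.54 in Spry1 and -0.0019 to 0.17 in Spry4. The cause of these changes was not tested. Deviations of same-numbered arrays correlated at 0.65, -0.28 and 0.49. Pairs of a pre- and a post-heartbeat array correlated at 0.49 to 0.65 on the same slide and at -0.73 to -0.28 on different slides. As the sign followed the slide, these values cannot decide whether the replicate numbers paired the samples. The replicate block gave 0 called genes of 20, with the lowest limma adjusted p 0.227 in Etv4.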
